A study of Rattus norvegicus with 21 samples.

Results

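The G protein-coupled receptor genes Glp1r, Gipr, Gpr119, Gcgr, Ffar1, Chrm3, Adra2a, Sstr1, Sstr3 and Gprc5b were followed through RNA libraries of rat pancreatic islets. These 10 genes were chosen by symbol among the 17025 genes of the deposited count table, with earlier results of these data known. From the measurements themselves the selection used their presence in the table, and the value of Gprc5b for the change of the GLT effect with time was already known. All 10 were found and all 10 were among the 12576 genes kept by the filter on low counts.

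Islets of Sprague Dawley rats came from 3 isolations, in each of which the islets of 8 rats were pooled and then split among the culture conditions, giving 21 libraries. Glucolipotoxic (GLT) medium held 27 mM glucose and 300 µM palmitate, and control medium held 11 mM glucose. The conditions named alike throughout were GLT with compound E for 24 h (2 libraries, preparations 1 and 2), GLT with compound D for 24 h (3 libraries), GLT for 24 h (3), GLT with compound E for 3 h (1 library, preparation 2), GLT with compound D for 3 h (3) and control for 3 h (3). Compounds D and E were given at 300 nM, and neither a structure nor a target for them was used here. The 2 other conditions are named in opposite ways: the sample records call condition 2 a 24 h control and condition 3 a 3 h GLT culture, whereas the deposited sample sheet calls condition 2 a 3 h GLT culture and condition 3 a 24 h control. This concerns 6 of the 21 libraries, so both are kept here by number and each comparison with them is given under both readings. The libraries of a condition come from separate islet preparations, and n is the number of preparations. Where groups of libraries are said not to overlap, this only describes the values. The share of all genes without overlap was not counted.

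Receptors of this superfamily pass a signal from a hormone, transmitter or nutrient outside the cell to heterotrimeric G proteins inside it. In beta cells, receptors that couple to Gs raise cyclic AMP and amplify glucose-stimulated insulin secretion, receptors that couple to Gq act through phospholipase C and calcium, and receptors that couple to Gi lower cyclic AMP and restrain secretion. Among the genes followed, Glp1r, Gipr, Gpr119 and Gcgr encode Gs-coupled receptors, Ffar1 and Chrm3 encode Gq-coupled receptors, Adra2a, Sstr1 and Sstr3 encode Gi-coupled receptors, and Gprc5b encodes an orphan receptor of class C.

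The libraries held 22.3 to 40.2 M counts assigned to genes, and levels are given as CPM, that is, each gene's count per M counts of its library after trimmed mean of M values (TMM) scaling. Since they are not divided by gene length, levels are compared between libraries and never between genes. The insulin genes Ins1 and Ins2 took 9.32% to 45.9% of the counts of a library. The condition 3 library of preparation 2 stood apart, with the greatest depth and 0.0333% of its counts on the ribosomal gene Rn45s. Summed red cell markers (6 of 8 in the table) gave 10.03 to 14.4 CPM in condition 2 and 1.08 to 1.49 CPM in condition 3. In the conditions named alike they gave 0.980 to 1.92 CPM at 24 h and 4.49 to 14.7 CPM at 3 h. Summed endothelial markers (9 of 9) gave 219.8 to 255 CPM in condition 2 and 83.6 to 123 CPM in condition 3, against 30.5 to 125 CPM at 24 h and 186 to 250.5 CPM at 3 h in the conditions named alike. On both lists condition 2 therefore lay with or near the 3 h libraries and condition 3 with the 24 h libraries, which is the placing that the sheet gives; no library was renamed on this ground.

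**Figure D1:**
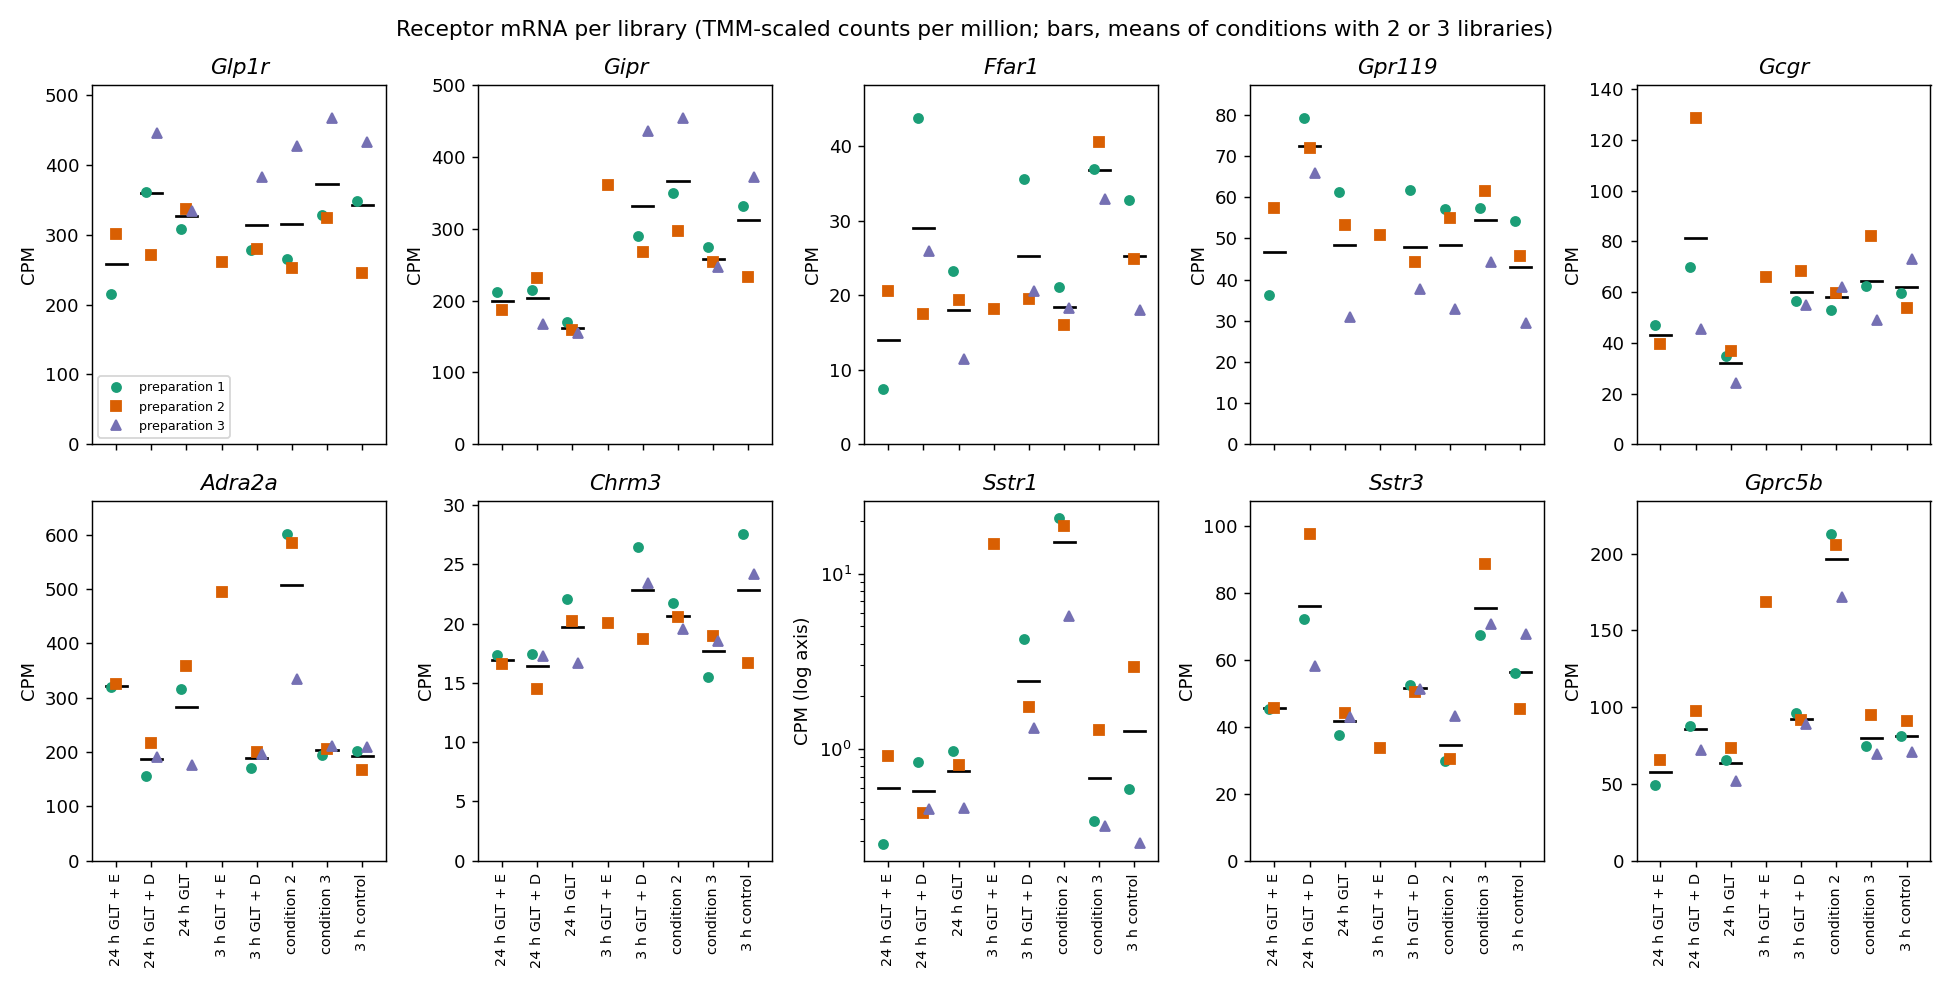
Each panel shows a receptor gene, with CPM on the vertical axis (a log axis for Sstr1) and the 8 conditions on the horizontal axis; symbols are libraries coded by preparation, and bars are means of conditions with 2 or 3 libraries. Sstr1, Gprc5b and Adra2a stand highest in condition 2, at means of 15.03, 197 and 507 CPM, with the single 3 h library of GLT with compound E next.

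Over the condition means with at least 2 libraries, Sstr1 spanned 26.0-fold, Gprc5b 3.42-fold, Adra2a 2.70-fold, Ffar1 2.63-fold, Gcgr 2.55-fold, Gipr 2.28-fold and Sstr3 2.21-fold. The narrowest spans were those of Gpr119 at 1.68-fold, the glucagon-like peptide receptor gene Glp1r at 1.45-fold and the muscarinic receptor gene Chrm3 at 1.39-fold. Sstr1 was the sparsest, with 6 to 477 counts per library, while Glp1r never fell below 4460 counts.

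Compounds D and E were compared with GLT alone, and with each other, at 24 h, where both sources name the libraries alike. With compound D, Gcgr and Sstr3 were higher than with GLT alone. Gcgr, the glucagon receptor gene, had 69.9, 129 and 45.6 CPM with compound D (preparations 1, 2 and 3) and 34.9, 37.0 and 24.1 CPM with GLT alone. Sstr3, a somatostatin receptor gene, had 72.0, 97.5 and 58.1 CPM with compound D and 37.7, 44.1 and 42.9 CPM with GLT alone. For both genes every compound D library lay above every GLT library, and preparation 2 was the highest with compound D. The fitted rise was 2.47-fold for Gcgr (log2 1.30, SE 0.27, adjusted p = 0.0147, edgeR quasi-likelihood test over all genes, n = 3 each) and 1.83-fold for Sstr3 (log2 0.87, SE 0.20, adjusted p = 0.0255). The paired log2 differences were 1.00, 1.80 and 0.92 for Gcgr and 0.94, 1.15 and 0.44 for Sstr3, so each was positive in 3 of 3 preparations. In these bulk libraries, a change in the number of cells that carry a receptor and a change of its RNA per cell cannot be told apart. Without the compound D library of preparation 2 the adjusted p was 0.0768 for Gcgr and 0.14 for Sstr3. Leaving out a whole preparation ended the Sstr3 call each time (adjusted p = 0.337, 0.0852 and 0.0532 without preparations 1, 2 and 3). The Gcgr call ended without preparation 1 (0.214) or 2 (0.0571). Without preparation 1, 0 of all genes passed, against 513 with all libraries, so that loss is not particular to these genes.

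In this comparison 2 of the 10 receptor genes passed, both higher, against 4.08% of the genes tested (247 higher and 266 lower of 12576). Their median log2 difference was 0.40, against 0.0081 over all genes tested. Gpr119, which encodes a receptor for lipid amides, had 79.3, 71.9 and 65.8 CPM with compound D and 61.2, 53.3 and 31.0 CPM with GLT alone, and these groups did not overlap either. Its log2 difference was 0.64 (SE 0.19) and its adjusted p of 0.0815 missed the threshold of 0.05. Gprc5b differed by 0.44 (SE 0.12, adjusted p = 0.0597), with paired differences of 0.42, 0.42 and 0.48. Adra2a, the alpha-2A adrenergic receptor gene, had 156, 217 and 192 CPM with compound D and 316, 358 and 176 CPM with GLT alone, so that preparations 1 and 2 were lower with the compound and preparation 3 was not (log2 -0.57, SE 0.24, adjusted p = 0.227). DESeq2 passed Gpr119 and Gprc5b in addition, and over all genes it passed 905, against 513 by edgeR. The alpha cell markers summed to 15685 to 32760.2 CPM with compound D and 12184 to 23306 CPM with GLT alone. The delta cell markers summed to 361 to 2314 CPM and 336 to 1392 CPM, in the same order. The beta cell markers (10 of 12) summed to 87289 to 583528 CPM with compound D and 80159 to 275186 CPM with GLT alone. The ranges of each list overlapped. Ins1 and Ins2 took 11.7%, 43.3% and 10.002% of the counts with compound D (preparations 1, 2 and 3). With GLT alone they took 23.02%, 25.8% and 9.32%. The part of these cells in the Gcgr and Sstr3 values was not tested.

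With compound E, 0 of the 10 receptor genes passed against GLT alone by edgeR, 0 had an unadjusted p under 0.05 and DESeq2 passed 0. Over all genes tested 0% passed, with 813 at an unadjusted p under 0.05. Gcgr had 47.2 and 39.4 CPM with compound E and Sstr3 had 45.3 and 45.6 CPM, each above the highest GLT library. The 95% intervals of the log2 difference ran from -0.26 to 1.00 for Gcgr, from -0.33 to 0.64 for Sstr3 and from -0.63 to 0.24 for Glp1r, and 2 libraries do not limit the change more narrowly. Without preparation 2 the Ffar1 difference was -1.50. It rests on the lone compound E library of preparation 1, at 7.35 CPM, so no test of it is given.

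Set directly against each other at 24 h, compound E gave lower Gprc5b than compound D. Gprc5b had 49.4 and 65.5 CPM with compound E and 87.8, 97.7 and 72.1 CPM with compound D, and the groups did not overlap. The log2 difference was -0.67 (SE 0.14, adjusted p = 0.0193), a ratio of 0.628, and 1 of 10 receptor genes passed against 3.01% of all genes. The differences for Gcgr (-0.93, SE 0.31, adjusted p = 0.119), Sstr3 (-0.72, SE 0.23, adjusted p = 0.109) and Gpr119 (-0.82, SE 0.22, adjusted p = 0.0595) did not pass, so the compounds are not shown to differ on these genes. Their 95% intervals were -1.59 to -0.28, -1.20 to -0.23 and -1.30 to -0.35. Gpr119 passed in DESeq2 (-0.81, adjusted p = 0.0162), which passed 835 of all genes. Gcgr (adjusted p = 0.0221) and Sstr3 (0.0483) passed in edgeR with scaling by library size, which shifted the median of all genes by -0.391. In the main fit 6 of 10 receptor genes had an unadjusted p under 0.05, as did 2313 of the 12576 genes tested. The Gprc5b call was lost without preparation 3 (adjusted p = 0.101), without the preparation term (0.188) and in limma voom (0.0551). With only the conditions compared in the fit it was lost too, and 0 of all genes passed there, against 378 in the main fit. Leaving out preparation 1, or its compound E library alone, left 1 compound E library, and the call did not hold. Without preparation 1 the log2 difference was -0.53. The compound E library of preparation 1 had the lowest TMM factor of the series, 0.682.

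**Figure D2:**
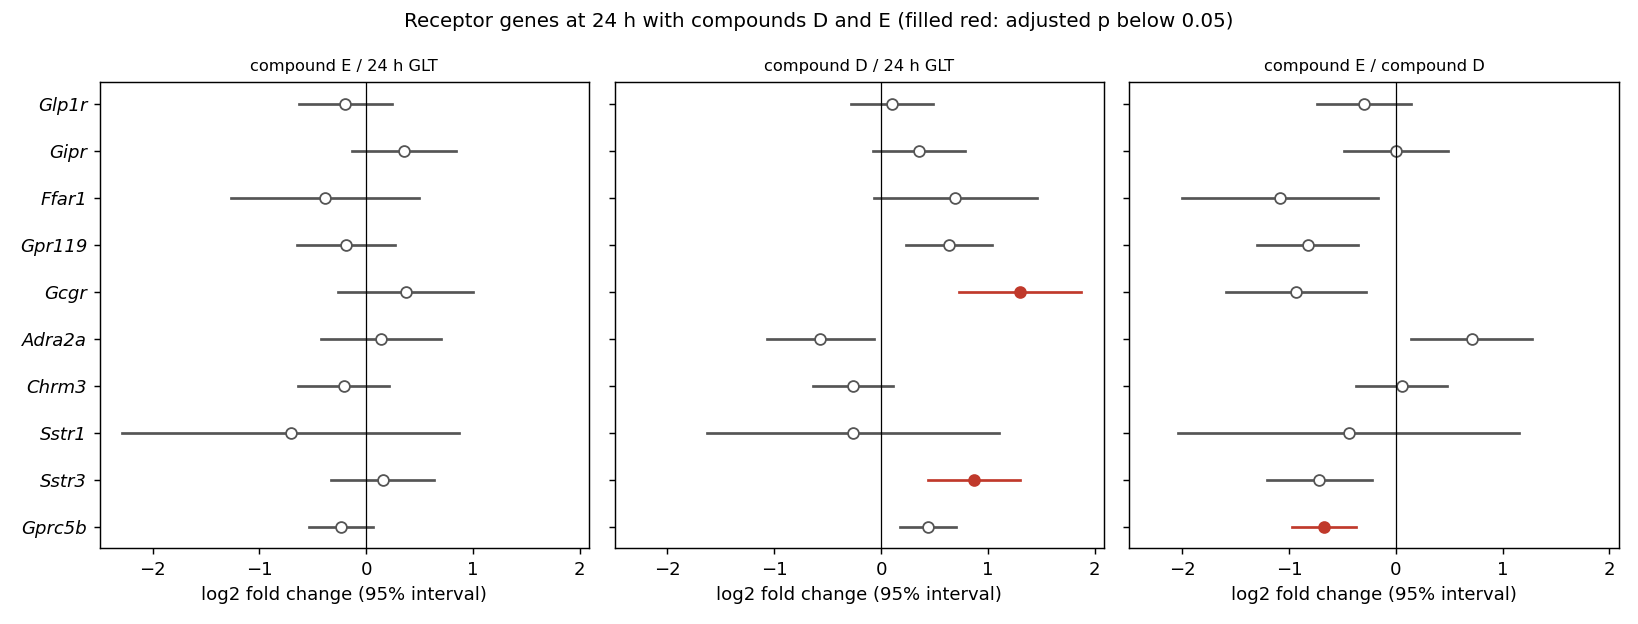
Fitted log2 fold changes at 24 h (horizontal axis, with 95% intervals as lines) for the 10 receptor genes (rows), comparing compound E with GLT, compound D with GLT, and compound E with compound D; filled red points have an adjusted p below 0.05. Gcgr at 1.30 and Sstr3 at 0.87 are filled for compound D against GLT, none is filled for compound E against GLT, and Gprc5b at -0.67 is filled for compound E against compound D.

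At 3 h, GLT with compound D was compared with control, again where the names do not differ. 0 of 10 receptor genes passed by edgeR, 0 had an unadjusted p under 0.05 and DESeq2 passed 0, against 0.103% of all genes by edgeR. Over all genes, 817 had an unadjusted p under 0.05 and DESeq2 passed 108. The median log2 difference was 0.0039 over the receptor genes and -0.038 over all genes. Most values were close between the groups: Adra2a had 171, 199.6 and 196 CPM with GLT and compound D and 202, 167 and 209 CPM in control, with a log2 difference of -0.033 and a 95% interval of -0.53 to 0.47. The widest interval was that of Sstr1, from -0.024 to 2.46, with 4.27, 1.73 and 1.32 CPM with GLT and compound D and 0.597, 2.92 and 0.294 CPM in control. The groups overlapped through the control library of preparation 2, and without that preparation the difference was 2.57 (adjusted p = 0.0211).

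When 24 h was set against 3 h within the compound D cultures, 0 of 10 receptor genes passed by edgeR, against 6.11% of all genes, while 5 had an unadjusted p under 0.05 and DESeq2 passed 3 (Gipr, Gpr119 and Sstr1). Over all 12576 genes tested, 2788 had an unadjusted p under 0.05 and DESeq2 passed 1328. Gipr, the receptor gene for glucose-dependent insulinotropic polypeptide, had 214, 232 and 167 CPM at 24 h and 291, 268 and 437 CPM at 3 h, without overlap (log2 -0.67, SE 0.20, adjusted p = 0.0677). Gpr119 stood at 65.8 to 79.3 CPM at 24 h and 37.6 to 61.8 CPM at 3 h (0.62, SE 0.19, adjusted p = 0.0669). Sstr1 stood at 0.432 to 0.846 CPM at 24 h and 1.32 to 4.27 CPM at 3 h (-1.98, SE 0.60, adjusted p = 0.0651). None of these differences is called here. In each the libraries of the times do not overlap, which describes the values and adds no support.

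Condition 2 carried the widest receptor differences of the series: Sstr1, Gprc5b and Adra2a were all higher there than in 3 h control. By the sheet this compares GLT with control at 3 h, and by the records 24 h with 3 h of control culture. Sstr1, whose product is a Gi-coupled somatostatin receptor, had 20.8, 18.5 and 5.74 CPM in condition 2 and 0.597, 2.92 and 0.294 CPM in 3 h control. Gprc5b had 213, 205 and 172 CPM in condition 2 and 81.5, 90.7 and 71.0 CPM in 3 h control. Adra2a, whose product mediates the restraint of insulin secretion by catecholamines, had 602, 585 and 335 CPM in condition 2 and 202, 167 and 209 CPM in 3 h control. For all 3 genes the lowest condition 2 library lay above the highest control library, and preparation 3 was the lowest of condition 2. The fitted rises were 13.1-fold for Sstr1 (log2 3.71, SE 0.59, adjusted p = 0.00306), 2.43-fold for Gprc5b (1.28, SE 0.12, adjusted p = 9.42e-05) and 2.58-fold for Adra2a (1.37, SE 0.24, adjusted p = 0.00586), each in 3 of 3 preparations. Thus 3 of 10 receptor genes passed, all higher, against 2.31% of all genes (247 higher and 43 lower), with a median log2 difference of 0.027 over the 10 and -0.020 over all genes. The change of the GLT effect on Gprc5b, known at selection, uses these same libraries, so Gprc5b in this count supports nothing further. Without preparation 1 the adjusted p was 0.175 for Sstr1, 0.0762 for Gprc5b and 0.343 for Adra2a. That fit passed 7 of all genes, against 290 with all libraries. Without preparation 2 Adra2a had 0.0605, and without preparation 3 Sstr1 had 0.137.

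Sstr3 ran the other way and did not pass: it had 29.9, 30.2 and 43.1 CPM in condition 2 and 56.2, 45.2 and 67.5 CPM in 3 h control, without overlap (-0.72, SE 0.20, adjusted p = 0.0839). DESeq2 (0.0264) and a fit of only the conditions compared (0.0249) did pass it. The other 6 receptor genes differed by -0.41 to 0.24 on the log2 scale between condition 2 and 3 h control. Among them were both incretin receptor genes, Glp1r at -0.13 (SE 0.18) and Gipr at 0.24 (SE 0.20). Red cell markers were also somewhat higher in condition 2, at 10.03 to 14.4 CPM against 7.66 to 10.5 CPM in 3 h control, and endothelial markers were alike, at 219.8 to 255 CPM in condition 2 and 210.2 to 250.5 CPM in 3 h control.

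GLT with compound D at 3 h lay below condition 2 on the same genes, which by the sheet is the effect of compound D at 3 h and by the records sets a treated 3 h culture against an untreated 24 h culture. Adra2a was 171, 199.6 and 196 CPM with GLT and compound D and, as above, 335 to 602 CPM in condition 2, a ratio of 0.379 (log2 -1.40, SE 0.24, adjusted p = 0.0143). Gprc5b was 95.8, 91.6 and 88.8 CPM with GLT and compound D and 172 to 213 CPM in condition 2, a ratio of 0.471 (-1.09, SE 0.12, adjusted p = 0.00118). For both genes the groups did not overlap, and the paired differences were negative in 3 of 3 preparations. Sstr1, at 1.32 to 4.27 CPM against 5.74 to 20.8 CPM, did not overlap either, but its difference of -2.50 (SE 0.55) had an adjusted p of 0.0664. It passed in DESeq2 (0.00172), in limma voom (0.0312) and with only the conditions compared in the fit (0.000199). In all 2 of 10 receptor genes passed, both lower, against 0.493% of all genes. Gprc5b was chosen with a value known that uses the condition 2 libraries, so its place in this count supports nothing further. Without preparation 1 the adjusted p was 0.872 for Adra2a and 0.284 for Gprc5b, and 0 of all genes passed, against 62 with all libraries. Without preparation 2 Adra2a had 0.13, and without preparation 3 Gprc5b had 0.0571.

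The comparisons with condition 2 share its 3 libraries, so their values are set side by side only. The single 3 h library of GLT with compound E, from preparation 2, has no replicate and was not tested. It had 14.7 CPM of Sstr1, 169 CPM of Gprc5b and 494 CPM of Adra2a. In the same preparation, GLT with compound D for 3 h had 1.73, 91.6 and 199.6 CPM of these genes, condition 2 had 18.5, 205 and 585 CPM, condition 3 had 1.29, 94.9 and 206 CPM, and 3 h control had 2.92, 90.7 and 167 CPM. The compound E library was thus 8.49 times the compound D library for Sstr1, 1.84 times for Gprc5b and 2.48 times for Adra2a, and 0.795, 0.821 and 0.845 times condition 2. Its Sstr3 level, 33.6 CPM, lay between 30.2 CPM in condition 2 and 50.4 CPM in the compound D library.

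**Figure D3:**
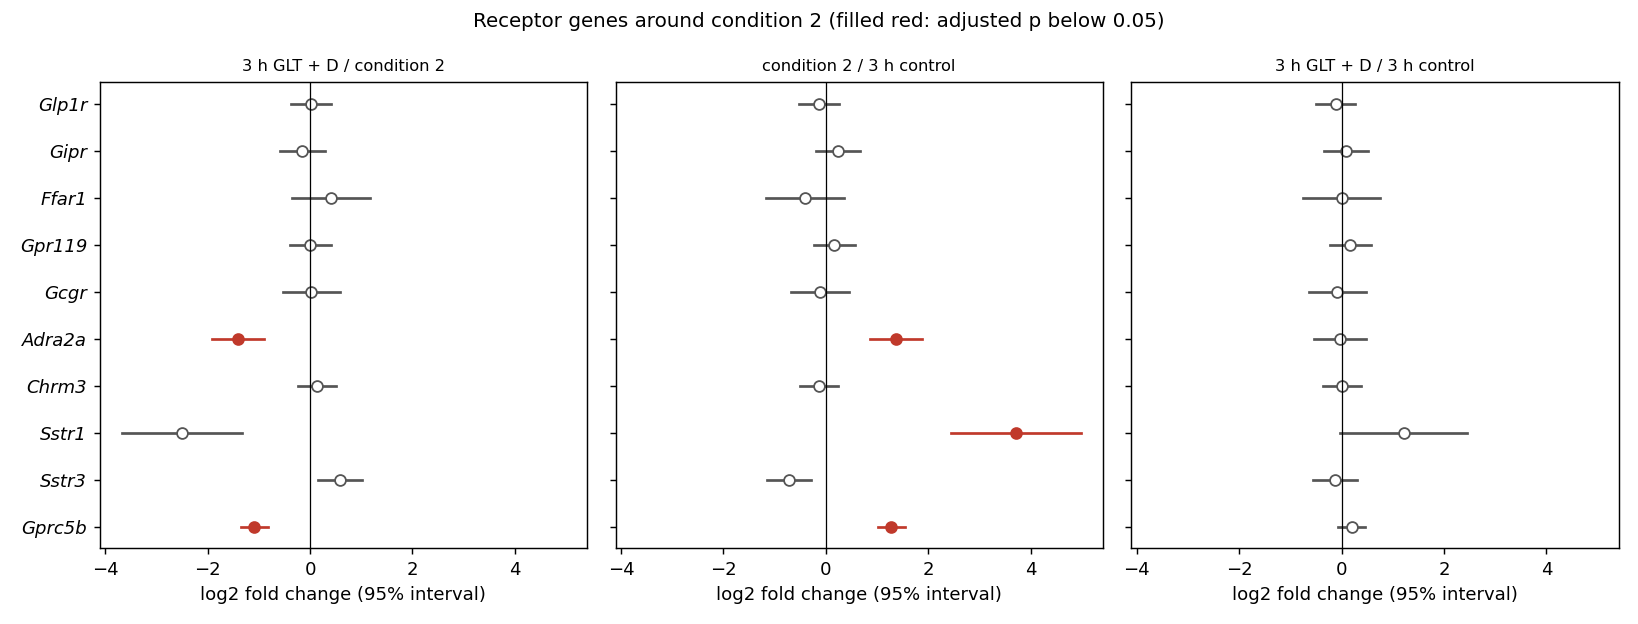
Fitted log2 fold changes (horizontal axis, lines are 95% intervals) of the 10 receptor genes (rows) for 3 h GLT with compound D against condition 2, condition 2 against 3 h control, and 3 h GLT with compound D against 3 h control; filled red points have an adjusted p below 0.05. Adra2a and Gprc5b are filled on opposite sides of 0 in the first and middle panels, Sstr1 is filled in the middle panel at 3.71, and no gene is filled in the last panel.

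Windows around the annotated starts of the 3 genes that were higher together in condition 2 are shown side by side. Each runs from 250 bases before to 50 bases after the RefSeq start on GRCr8, 5′ to 3′ on the gene's strand, and capitals mark the half-site of the cyclic AMP response element (TGACG or, on the other strand, CGTCA). Sstr1 lies at chr6:81567233-81567532 (+), Gprc5b at chr1:182772227-182772526 (-) and Adra2a at chr1:263066530-263066829 (+).
Sstr1: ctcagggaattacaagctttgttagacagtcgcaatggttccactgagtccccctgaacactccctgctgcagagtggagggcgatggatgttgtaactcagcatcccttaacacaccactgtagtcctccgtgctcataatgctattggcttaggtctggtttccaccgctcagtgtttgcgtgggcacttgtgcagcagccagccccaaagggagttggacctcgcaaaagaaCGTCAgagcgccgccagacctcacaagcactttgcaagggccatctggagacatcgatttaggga
Gprc5b: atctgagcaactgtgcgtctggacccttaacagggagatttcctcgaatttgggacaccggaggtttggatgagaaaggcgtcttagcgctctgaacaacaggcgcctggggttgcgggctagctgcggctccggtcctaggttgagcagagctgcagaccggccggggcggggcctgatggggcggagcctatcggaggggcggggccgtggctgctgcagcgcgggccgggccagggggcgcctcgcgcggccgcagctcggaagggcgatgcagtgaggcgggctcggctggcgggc
Adra2a: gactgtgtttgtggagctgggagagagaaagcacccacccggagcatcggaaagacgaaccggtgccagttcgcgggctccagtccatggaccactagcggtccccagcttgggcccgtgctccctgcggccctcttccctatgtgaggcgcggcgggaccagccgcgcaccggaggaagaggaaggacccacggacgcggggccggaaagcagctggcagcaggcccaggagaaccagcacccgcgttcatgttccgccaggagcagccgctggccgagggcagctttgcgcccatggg
Sstr1 held 1 half-site, whose first base lies 15 bases before the start, while the windows of Gprc5b and Adra2a held none. Among the 9 receptor genes matched in the promoter table, Glp1r, Ffar1 and Chrm3 also held 1 each, and 21.2% of the 33469 promoters of the same length held at least 1. The full element TGACGTCA, which contains the half-site on both strands, is in 1.83% of all promoters and in no window of the 9, and the E-box CACGTG is in 6.42% and likewise in none. GC content was 53.7% for Sstr1, 69% for Gprc5b and 68% for Adra2a. A match is a run of letters and no measured binding, and these windows leave out the rest of each gene. The 50 bases after the Adra2a start open with atg, as a coding sequence does. Its window may therefore not hold its promoter, and its matches and GC content describe only the window.

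The profiles nearest to Sstr1 over the 21 libraries, by root mean square difference of centred log2 CPM with 0.1 CPM added, were those of Ypel4 (0.89), Qrfpr (0.91) and Wnt9b (0.92), against a standard deviation of 1.84 for Sstr1 itself. Ypel4 averaged 103 CPM in condition 2 and 17.5 CPM in 3 h control, and Qrfpr, a neuropeptide receptor gene, 1.57 CPM in condition 2 with no count in any 3 h control library. Nearest to Gprc5b were Fam107b (0.30), Ica1 (0.32) and Spry2 (0.32). Likeness here is a description over libraries that share preparations and depth.

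Against condition 2, 24 h GLT was lower for Gipr, Sstr1, Gprc5b and Adra2a. By the records this is GLT against control at 24 h, and by the sheet it is 24 h against 3 h of GLT. Gipr had 171, 159 and 154 CPM in 24 h GLT and 349.7, 297 and 455 CPM in condition 2, with no overlap and a ratio of 0.445 (log2 -1.17, SE 0.21, adjusted p = 0.00392). Gprc5b had 65.7, 73.1 and 51.7 CPM in 24 h GLT, a ratio of 0.321 to condition 2 (-1.64, SE 0.13, adjusted p = 1.08e-05). Sstr1 had 0.980, 0.811 and 0.462 CPM in 24 h GLT, a ratio of 0.0540 (-4.21, SE 0.61, adjusted p = 0.00124). All 3 genes were lower in 3 of 3 preparations and their groups did not overlap. Adra2a, at 316, 358 and 176 CPM in 24 h GLT, overlapped condition 2 through its preparation 3 library, but was lower within each preparation, by 0.93, 0.71 and 0.93 (fitted -0.85, SE 0.24, adjusted p = 0.0394). Gcgr, at 24.1 to 37.0 CPM in 24 h GLT and 53.1 to 61.9 CPM in condition 2, did not overlap and just missed the threshold (-0.89, SE 0.27, adjusted p = 0.0508). The 4 calls of 10 compare with 8.52% of all genes, and the median log2 difference was -0.46 for the receptor genes and -0.015 for all genes. For Gprc5b, a value from these same libraries was known at selection, so its place in this count supports nothing further. Without preparation 1 only the Gprc5b call held (adjusted p = 0.0187; Gipr 0.154, Sstr1 0.0824, Adra2a 0.316), and without preparation 3 likewise (0.0101; 0.058, 0.0599 and 0.111). The fit without preparation 1 passed 21 of all genes, against 1072 with all libraries. The Adra2a call was also lost without preparation 2 (0.071), with scaling by library size (0.189) and without the preparation term (0.0567). Gcgr passed in DESeq2 (0.0202) and with only the conditions compared (0.00433). Endothelial markers summed to 38.3 to 104 CPM in 24 h GLT against 219.8 to 255 CPM in condition 2, and red cell markers to 0.980 to 1.24 CPM against 10.03 to 14.4 CPM. The part of these cells in the receptor values was not tested.

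Against condition 3, 24 h GLT was lower for Gcgr and Sstr3. By the sheet this is GLT against control at 24 h, and by the records 24 h against 3 h of GLT. Gcgr had 34.9, 37.0 and 24.1 CPM in 24 h GLT and 62.2, 82.2 and 49.1 CPM in condition 3, a ratio of 0.499 (log2 -1.004, SE 0.27, adjusted p = 0.0396). Sstr3 had 37.7, 44.1 and 42.9 CPM in 24 h GLT and 67.3, 88.4 and 70.8 CPM in condition 3, a ratio of 0.550 (-0.86, SE 0.20, adjusted p = 0.0227). In both genes the groups were apart and every preparation was lower in 24 h GLT. These are the genes that compound D raised against the same 24 h GLT libraries, so the comparisons share those 3 libraries and are set side by side only. Gipr (154 to 171 CPM in 24 h GLT, 247 to 275 CPM in condition 3) and Ffar1 (11.4 to 23.3 CPM and 33.0 to 40.5 CPM) did not overlap between the groups and did not pass, at -0.68 (SE 0.20, adjusted p = 0.0633) and -1.08 (SE 0.36, adjusted p = 0.0928). Ffar1 encodes a receptor whose ligands are long-chain fatty acids, of which palmitate is an example. Here 2 of 10 passed, against 5.97% of all genes, with medians of -0.27 for the receptor genes and -0.0035 for all genes.

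Other values moved with this comparison. Stellate cell markers (9 of 9) summed to 491 to 894 CPM in 24 h GLT and 1111 to 1532 CPM in condition 3, so that condition 3 lay above every other library of the series, and their part in the receptor values was not tested. With the share of ambiguous reads as a covariate, the adjusted p was 0.21 for Gcgr and 0.0981 for Sstr3. Without preparation 1 it was 0.271 and 0.265, and 15 of all genes passed, against 751 with all libraries. Without preparation 3 it was 0.112 and 0.0774. Without preparation 2, which holds the condition 3 library that stood apart, it was 0.0532 and 0.0496.

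**Figure D4:**
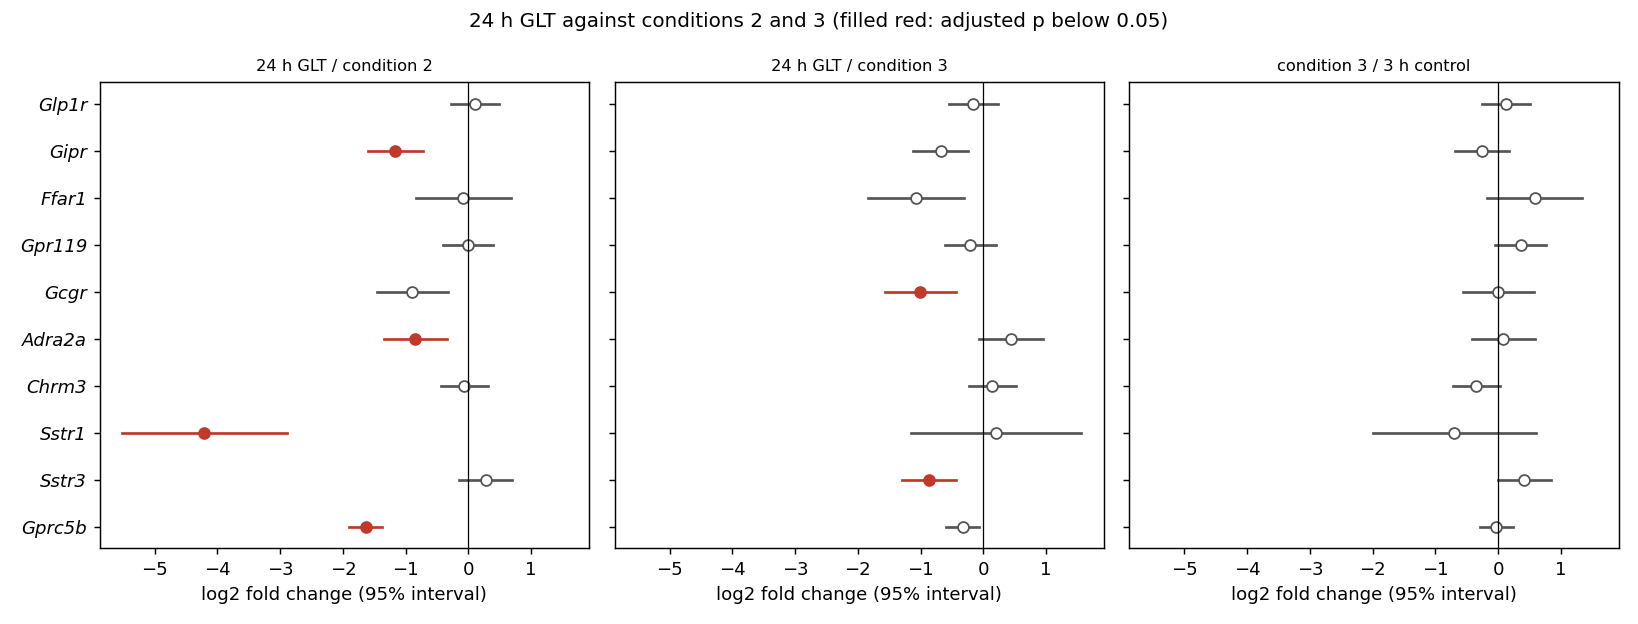
Fitted log2 fold changes (horizontal axis, lines are 95% intervals) of the 10 receptor genes (rows) for 24 h GLT against condition 2, 24 h GLT against condition 3, and condition 3 against 3 h control; filled red points have an adjusted p below 0.05. Gipr, Adra2a, Sstr1 and Gprc5b are filled against condition 2, Gcgr and Sstr3 against condition 3, and none in the last panel.

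Condition 3 and 3 h control did not differ on any receptor gene past the test. The comparison is GLT against control at 3 h by the records and 24 h against 3 h of control culture by the sheet. Of the 10 genes 0 passed by edgeR, 0 had an unadjusted p under 0.05 and DESeq2 passed 0, against 0.692% of all genes by edgeR. Over all genes, 1627 had an unadjusted p under 0.05 and DESeq2 passed 387. Gcgr had 62.2, 82.2 and 49.1 CPM in condition 3 and 59.7, 53.6 and 72.9 CPM in 3 h control, with a log2 difference of 0.00041 and a 95% interval of -0.57 to 0.57. Gprc5b differed by -0.028 (interval -0.29 to 0.23) and Glp1r by 0.13 (-0.26 to 0.51). The largest differences, Sstr1 at -0.70 and Ffar1 at 0.58, had intervals that spanned 0. GLT with compound D at 3 h was likewise compared with condition 3, which by the records is the effect of compound D at 3 h. There 0 of 10 passed by edgeR against 6.93% of all genes, 2 had an unadjusted p under 0.05 and DESeq2 passed 1, Sstr1 (edgeR log2 1.92, SE 0.61, adjusted p = 0.0728). Over all genes, 2843 had an unadjusted p under 0.05 and DESeq2 passed 1430. Without preparation 2 Sstr1 passed at 2.69 (adjusted p = 0.00674).

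The GLT effect at 24 h minus that at 3 h involves the same 4 conditions with the same signs under both readings. Gprc5b was lower by 1.56, 1.56 and 1.71 on the log2 scale in preparations 1, 2 and 3, with a fitted value of -1.61 (SE 0.17, adjusted p = 0.000901). This result was known when the genes were chosen, so it is a description and supports nothing further. Of the 10 receptor genes 1 passed, against 0.0716% of all genes (9 genes). Sstr1, at -3.80, -3.34 and -3.95 by preparation, did not pass (fitted -3.51, SE 0.85, adjusted p = 0.188), nor did Adra2a (-0.93, SE 0.33, adjusted p = 0.433) or Gipr (-0.92, SE 0.29, adjusted p = 0.347), though each was negative in 3 of 3 preparations. The Gprc5b call was lost without preparation 1 (adjusted p = 0.378), without preparation 3 (0.305) and with scaling by library size alone (0.393). Of all genes, 0 passed without preparation 1.

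The change of the compound D effect with time does depend on the reading. By the sheet, the log2 difference between compound D and GLT was higher at 24 h than at 3 h for Gprc5b, by 1.57, 1.58 and 1.43 in the preparations (fitted 1.52, SE 0.17, adjusted p = 0.00257), 1 of 10 receptor genes against 0.0318% of all genes (4 genes). By the records it was higher for Gcgr (1.14, 2.06 and 0.76 by preparation, fitted 1.39, SE 0.37, adjusted p = 0.0346) and Sstr3 (1.30, 1.96 and 0.90, fitted 1.42, SE 0.28, adjusted p = 0.00819), 2 of 10 against 7.7% of all genes. Both sets rest on libraries already used above. The Gprc5b value reuses the condition 2 and 24 h GLT libraries of its known change of the GLT effect. Its count against all genes therefore supports nothing further. Gprc5b lost its call without preparation 1 (0.696), without preparation 3 (0.379) and without the preparation term (0.0666). Gcgr lost its call without any of the 3 preparations (0.261, 0.101 and 0.0509), and Sstr3 without preparation 1 (0.179). By the records, the fit without preparation 1 passed 12 of all genes, against 968 with all libraries.

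Glp1r, Ffar1, Gpr119 and Chrm3 passed in none of the 14 comparisons. Glp1r ran from 214 to 467 CPM over the 21 libraries, and its condition means were highest in condition 3 (373 ± 82 CPM, SD, n = 3) and lowest in 24 h GLT with compound E (257 ± 61 CPM, n = 2). Preparation 3 had the highest Glp1r level in 5 of the 6 conditions with 3 libraries, the exception being 24 h GLT. Chrm3 ran from 14.5 to 27.6 CPM, with its highest mean in 3 h GLT with compound D (22.9 ± 3.9 CPM) and its lowest in 24 h GLT with compound D (16.4 ± 1.7 CPM). Gpr119 averaged 72.4 ± 6.8 CPM in 24 h GLT with compound D, above the 43.2 to 54.4 CPM of the other condition means. Ffar1 averaged 36.8 ± 3.8 CPM in condition 3, followed by 29.1 ± 13.5 CPM in 24 h GLT with compound D, which overlapped it.

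For the genes that did pass somewhere, the order of condition means was as follows. Gprc5b averaged 197 ± 22 CPM in condition 2, apart from all others, then 92.1 ± 3.5 CPM in 3 h GLT with compound D, 85.8 ± 12.9 in 24 h GLT with compound D, 81.0 ± 9.9 in 3 h control, 79.7 ± 13.4 in condition 3, 63.5 ± 10.9 in 24 h GLT and 57.5 ± 11.4 CPM in 24 h GLT with compound E. After the first, neighbours in this order overlapped in their libraries. Adra2a averaged 507 ± 149 CPM in condition 2, 322 ± 4.8 in 24 h GLT with compound E, 284 ± 95 in 24 h GLT, and then 188 to 204 CPM in the remaining 4 conditions, which did not differ beyond their spread. Gipr averaged 367 ± 81 CPM in condition 2, 332 ± 91 in 3 h GLT with compound D, 312 ± 72 in 3 h control, 259 ± 15 in condition 3, 204 ± 33 in 24 h GLT with compound D, 199 ± 18 in 24 h GLT with compound E and 161 ± 8.4 CPM in 24 h GLT. The first 3 of these overlapped in their libraries, condition 3 did not overlap condition 2, and 24 h GLT overlapped with 24 h GLT with compound D only. Gcgr and Sstr3 had their highest means in 24 h GLT with compound D, at 81.5 ± 42.8 and 75.9 ± 20.0 CPM. The lowest mean of Gcgr was 32.0 ± 6.9 CPM in 24 h GLT, and that of Sstr3 was 34.4 ± 7.5 CPM in condition 2.

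The receptors' partners were taken from lists of the signalling pathway, chosen with earlier results of these data known. Among 182 other G protein-coupled receptor genes tested, 6 were higher and 4 lower with compound D than with GLT alone at 24 h, and 8 were higher and 5 lower in 24 h GLT than in condition 3. Under the other reading, 4 were higher and 25 lower in 24 h GLT than in condition 2. Over all genes tested, 4.08%, 5.97% and 8.52% passed in these comparisons, in the order given, and the same shares apply to the lists below. Gpr50, an orphan relative of the melatonin receptors, averaged 0.157 ± 0.143 CPM with compound D and 7.61 ± 1.43 CPM with GLT alone at 24 h (log2 -5.53, SE 0.72, adjusted p = 0.000915). It averaged 0.0776 CPM in condition 3, where at least 1 library had no count (24 h GLT against condition 3 adjusted p = 0.000542). The short-chain fatty acid receptor gene Ffar3 was higher with compound D (1.63, SE 0.34, adjusted p = 0.0164) and lower in 24 h GLT than in condition 3 (-1.57, SE 0.34, adjusted p = 0.0165). Its libraries overlapped only at the edge, at 12.6 to 63.2 CPM with compound D and 5.12 to 12.8 CPM with GLT alone. The compound D libraries were widely spread. The vasopressin receptor gene Avpr1b was higher in 24 h GLT than in condition 3 (2.35, SE 0.50, adjusted p = 0.0146). Against condition 2 neither gene passed, with Ffar3 means of 9.27 CPM in 24 h GLT and 9.83 CPM in condition 2. Against 3 h control, condition 2 was higher for 6 and lower for 0 of the 182, where 2.31% of all genes passed. Of the somatostatin receptor relatives, named after their values were seen, Sstr2 was among these 6 (21.8 ± 1.1 CPM in condition 2 and 8.99 ± 5.33 CPM in 3 h control, adjusted p = 0.0174) and Sstr5 was higher with compound D than with GLT at 24 h (5.76 ± 1.25 CPM and 2.07 ± 0.49 CPM, adjusted p = 0.033).

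Of 30 G protein subunit genes, Gng2, which encodes a gamma subunit, was the only one that passed in either of the 2 comparisons named first: it averaged 110.1 ± 27 CPM with compound D and 218 ± 25 CPM with GLT at 24 h (-0.998, SE 0.15, adjusted p = 0.00228), and was higher in 24 h GLT than in condition 3 (0.64, SE 0.15, adjusted p = 0.023). Against condition 2, 1 subunit gene was higher and 2 were lower in 24 h GLT. Gnas, Gnaq and Gnai2, the alpha subunit genes of the Gs, Gq and Gi classes, gave 0.22, -0.16 and 0.10 with compound D and -0.060, -0.16 and -0.17 in 24 h GLT against condition 3, and did not pass. Of 43 genes of the cyclic AMP pathway, 2 were higher and 3 lower with compound D, and 3 were higher and 0 lower in 24 h GLT than in condition 3, against 2 higher and 7 lower than in condition 2. Pkib, an inhibitor of protein kinase A, averaged 12.7 ± 6.1 CPM with compound D and 32.5 ± 4.0 CPM with GLT (-1.43, SE 0.21, adjusted p = 0.00202). Crem, a cyclic AMP responsive transcription factor gene, averaged 141 ± 64 CPM with compound D and 287 ± 22 CPM with GLT (-1.05, SE 0.26, adjusted p = 0.0348). Crem was also higher in condition 2, at 596 ± 45 CPM, than in 3 h control, at 176 ± 46 CPM (1.76, SE 0.26, adjusted p = 0.002). In 24 h GLT it was higher than in condition 3 (1.46, SE 0.26, adjusted p = 0.00582) and lower than in condition 2 (-1.06, SE 0.26, adjusted p = 0.0222), so its direction in GLT at 24 h depends on the reading. Of 31 phospholipase C pathway genes, Plcd3 was lower in 24 h GLT than in condition 2 (-1.36, SE 0.30, adjusted p = 0.0133).

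Of 34 genes for receptor kinases, arrestins and regulators of G protein signalling, 2 were higher and 2 lower with compound D, and 4 were higher and 3 lower in 24 h GLT than in condition 3, against 4 higher and 2 lower than in condition 2. Rgs2, which limits Gq signalling, averaged 15.6 ± 2.8 CPM with compound D and 52.3 ± 8.2 CPM with GLT at 24 h (-1.75, SE 0.21, adjusted p = 0.000507), and 147 ± 59 CPM in condition 2 against 33.9 ± 11.5 CPM in 3 h control (2.09, SE 0.21, adjusted p = 9.74e-05). In 24 h GLT Rgs2 was higher than in condition 3 (1.44, SE 0.21, adjusted p = 0.0018) and lower than in condition 2 (-1.44, SE 0.21, adjusted p = 0.00114). Rgs11 was higher with compound D (1.28, SE 0.24, adjusted p = 0.0095) and lower in 24 h GLT than in condition 3 (-0.93, SE 0.24, adjusted p = 0.0369). The arrestin gene Arrb1 and the receptor kinase gene Adrbk1 did not pass with compound D (-0.97, SE 0.57 and -0.080, SE 0.15) or in 24 h GLT against condition 3. Against condition 2, Adrbk1 was higher in 24 h GLT (0.57, SE 0.15, adjusted p = 0.032, edgeR) and Arrb1 did not pass (1.52, SE 0.59, adjusted p = 0.13). Of 16 ligand precursor genes, Cck was lower with compound D (-2.32, SE 0.44, adjusted p = 0.00963), at 1.63 ± 0.22 CPM against 8.09 ± 2.84 CPM with GLT alone. Ucn3, the urocortin gene of mature beta cells, was higher with compound D (0.94, SE 0.24, adjusted p = 0.0389). Iapp was lower in 24 h GLT than in condition 3 (-0.78, SE 0.19, adjusted p = 0.0279) and than in condition 2 (-1.51, SE 0.19, adjusted p = 0.000466). Gcg and Sst, which encode the ligands of Gcgr and of the somatostatin receptors, gave 0.28 (SE 0.23) and 0.12 (SE 0.49) with compound D and did not pass. Against condition 2, 2 of the ligand genes were higher and 1 was lower in 24 h GLT.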

How the data were processed

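RNA from 21 libraries was sequenced as paired 100 bp reads. Per the labels' protocols, the authors aligned them with TopHat2 2.0.3 and Bowtie2 2.0.0 against rn5 and counted reads per gene with HTSeq; the deposited values are raw counts, not normalized. The strand setting and annotation are not given in the sources used here, so overlapping and antisense genes cannot be told apart. The 5 entries that name no gene took 17.7% to 37.9% of a column and were left out. The deposited sample sheet was read for its condition names. Depth was 22.3 to 40.2 M counts in genes (median 27.8 M), and 3 counts equal 0.0804 to 0.144 CPM.

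Counts were tested with edgeR 4.0.16 (R 4.3.3) in 1 fit of the 21 libraries, with condition and preparation as terms, after filterByExpr (12576 genes kept) and TMM scaling. The quasi-likelihood test was 2-sided, with Benjamini-Hochberg adjustment over all genes and a threshold of 0.05. The preparation term follows the labels, which divide each pooled isolation over the conditions; residuals correlated by 0.221 on average within a preparation (0.0773, 0.195 and 0.458 in preparations 1, 2 and 3). Conditions 2 and 3 were compared by number, with both readings given. Alternatives were DESeq2 1.42.0, limma voom 3.58.1, library size scaling, no low-count filter, omission of Ins1 and Ins2, no preparation term, only the conditions compared, and leaving out preparations or libraries. A covariate of ambiguous reads, the omission of the compound D library of preparation 2 at 24 h, and the change of the compound D effect with time were added after seeing the data.

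The receptor genes and the pathway and marker lists were chosen with earlier results of these data known. Genes named beyond the receptors follow a rule: up to 4 per list by smallest adjusted p in compound D against GLT at 24 h or condition 4 (24 h GLT) against condition 3, set partners whatever their value, the 3 profiles nearest to the 3 receptor genes whose mean log2 CPM ranged most between conditions (those of Ffar1 are not reported here), and Ins1 and Ins2; Sstr2, Sstr5, Plcd3, Crem and Rgs2 in condition 2 were named after their values were seen. On simulated counts for 12576 genes, the compound D comparison recovered 31% of 2-fold and 75% of 4-fold changes, and condition 2 against 3 h control 30% and 76%. Promoter sequences are RefSeq's, on GRCr8 (9 of 10 genes matched, not Gipr), while the counts were made on rn5.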

Additional observations from a re-analysis of the deposited data

Results flagged for a closer look

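Receptor genes whose response changed with time are given here because the difference between the responses was itself tested. The GLT effect on Gprc5b was lower at 24 h than at 3 h, with a difference of -1.61 on the log2 scale (adjusted p = 0.000901, edgeR), with the same sign in 3 of 3 preparations and under both readings of conditions 2 and 3. This value was known when the genes were chosen and supports nothing further, and the adjusted p was 0.378 without preparation 1, 0.305 without preparation 3 and 0.393 with scaling by library size. By the sheet's names the compound D effect on Gprc5b was higher at 24 h than at 3 h by 1.52 (adjusted p = 0.00257, edgeR). That value reuses the condition 2 and 24 h GLT libraries of the known one, so it supports nothing further either. By the records' names the compound D effect was higher at 24 h than at 3 h for Gcgr by 1.39 (adjusted p = 0.0346) and for Sstr3 by 1.42 (adjusted p = 0.00819). These comparisons share the 24 h GLT libraries. Conditions had at most 3 libraries, too few to look for a single library far from the rest.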

How the results depend on the processing

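Over the 140 receptor results (10 genes in 14 comparisons) and their 1820 alternative values, 0 changed direction past the test, 62 lost a call and 48 gained one. Of the 18 calls, 62 of 234 alternative values missed the threshold, and Gprc5b in 24 h GLT against condition 2 passed in 13 of 13. The counts of receptor genes past the test moved as follows, and the cause was not tested. For compound D at 24 h (2) DESeq2 gave 4, library size scaling 1, only the conditions compared 1, and leaving out a preparation or library 0 to 4. For compound E at 24 h (0) leaving out gave 0 to 1. For compound E against D (1) DESeq2 gave 2, library size 3, the fit with no replicate block 0, limma voom 0, only the conditions compared 0, and leaving out 0 to 4. For GLT with compound D against control at 3 h (0) leaving out gave 0 to 1. For time under GLT with compound D (0) DESeq2 gave 3, only the conditions compared 3, and leaving out 0 to 2. For the GLT effect with time (1) DESeq2 gave 2, library size 0, and leaving out 0 to 1. For 24 h GLT against condition 2 (4) DESeq2 gave 5, only the conditions compared 5, library size 3, no replicate block 3, and leaving out 1 to 5. For 24 h GLT against condition 3 (2) DESeq2 gave 4, library size 1, no replicate block 1, the ambiguous read covariate 0, and leaving out 0 to 3. For condition 2 against 3 h control (3) DESeq2 gave 4, only the conditions compared 4, library size 1 and leaving out 0 to 4. For 3 h GLT with compound D against condition 2 (2) DESeq2, limma voom and only the conditions compared gave 3, library size 0 and leaving out 0 to 2, and against condition 3 (0) DESeq2 gave 1 and leaving out 0 to 1. For the compound D effect with time by the sheet (1) library size gave 0, no replicate block 0, and leaving out 0 to 1. By the records (2) library size gave 0, no replicate block 1, the covariate 1, and leaving out 0 to 4.

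Scaling by library size alone shifted the median of all genes by -0.398 for compound E against GLT, -0.391 for E against D, 0.361 for the GLT effect with time, -0.327 and -0.156 for the compound D effect with time (sheet, records), 0.32 and 0.152 for 3 h GLT with compound D against conditions 2 and 3, -0.273 and -0.108 for conditions 2 and 3 against 3 h control, and 0.256 for 24 h GLT against condition 2. Less that shift, Gprc5b stood at 1.27 in condition 2 against 3 h control, where its call was lost (adjusted p = 0.0565), and at -1.64 in 24 h GLT against condition 2, where it was not (0.00365). Over all genes, the count past the test ran over the alternatives from 0 to 905 for compound D at 24 h (513 as reported), 0 to 3241 for compound E (0), 0 to 4543 for E against D (378), 1 to 108 for 3 h GLT with compound D against control (13), 9 to 1885 for time under compound D (769), 0 to 111 for the GLT effect with time (9), 21 to 3263 and 15 to 1285 for 24 h GLT against conditions 2 and 3 (1072 and 751), 7 to 590 and 0 to 387 for conditions 2 and 3 against 3 h control (290 and 87), 0 to 343 and 0 to 1430 for 3 h GLT with compound D against them (62 and 872), and 0 to 87 and 12 to 1575 for the compound D effect with time (4 by the sheet and 968 by the records). The lowest counts came without preparation 1 for compound D at 24 h, condition 2 against 3 h control, and 24 h GLT against conditions 2 and 3. Receptor calls lost in those fits are therefore not particular to the receptor genes. The highest counts for compound E, against GLT and against compound D, came without preparation 2, which leaves 1 compound E library. Depth limits Sstr1 most, with 6 counts in its lowest library.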
